A study of Mus with 2 samples.

Results

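Complement genes were examined in mouse BMDMs, which are macrophages grown from bone marrow. The genes were picked by name and not by a cut on measured values, but with earlier results of these data known. The set held 9 of the 20144 genes that had a probe with a matched RefSeq transcript. They were the chains of C1q (C1qa, C1qb, C1qc), C2, C3, factor B (Cfb), properdin (Cfp) and the receptors for the C3a and C5a fragments (C3ar1, C5ar1). All 9 genes had a probe, 10 probes in all, and each gave a signal well above background with DMSO, with GW4064 or with both. The bone marrow came from male C57BL6/J mice, 10 weeks old by the methods, and was grown for 7 d with 10 ng/mL of M-CSF. Both cultures then received 10 ng/mL of IL-4 for 24 h, which are the M2 conditions of the study, together with 10 µM of GW4064, a synthetic agonist of the farnesoid X receptor, or with its solvent DMSO. The question was which complement genes differed when the agonist was present during M2 induction. Each condition had 1 array, so there is no spread between replicates and no p-value, and that number limits how precisely any difference is known. Neither array held cells without IL-4, and whether the cultures came from the same mouse was not stated.

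Complement is a cascade of proteins that tags and damages microbes and dying cells. C1q recognises the target and, with the proteases C1r and C1s, starts the classical pathway, in which C4 and C2 form an enzyme that cuts C3. Factor B forms the corresponding enzyme of the alternative pathway, and properdin holds that enzyme together. The small fragments C3a and C5a act on cells through C3ar1 and C5ar1. The liver makes most circulating complement proteins, whereas C1q comes largely from macrophages and dendritic cells, and macrophages also make C3 and properdin.

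The values are the brightness of Cy3 spots on 1-colour Agilent arrays, as the scanner software gave it after background subtraction. Signals below are given before scaling between the arrays. Differences are on the log2 scale, GW4064 minus DMSO, after each array was divided by its 75th percentile (1209 for DMSO and 1265 for GW4064), a step that lowered each ratio of raw signals 1.05-fold. Among probes printed 10 times with a signal of 1000 or more, the SD of the log2 difference between copies was 0.072 at the median, and among those under 100 it was 0.18. These SDs describe the spots and not the cells.

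The macrophage markers fixed for the analysis were present, with 8 of 11 measured, differences between -0.25 and 0.14, and summed signals of 350667 with DMSO and 337438 with GW4064. Cd163 and Timd4, markers of resident tissue macrophages, were not well above background, and Cd68 had no matched probe. The IL-4 response gene Arg1 had a log2 difference of 3.82 and Retnla of 0.91, while Chil3 had 0.066 and Mrc1 had -0.34. Of the stromal cell markers 11 of 12 were measured and 10 were lower on the GW4064 array, with a summed signal of 41254 with DMSO and 23199 with GW4064. Of the neutrophil markers 6 of 7 were measured and all 6 were lower, with summed signals of 13632 and 8851. Of the dendritic cell markers 2 of 5 were measured (summed signals 59.1 and 150), of the B and T cell markers 2 of 5 (245 and 256) and of the mast cell markers 1 of 4 (37.9 and 23.8). Both measured dendritic markers were higher, Flt3 by at least 2.31 and Zbtb46 by 0.44, at signals under 100. Flt3 was too dim with DMSO to be well above background, so by the rule used it could not be lower. Its 1 measured probe had 3 other 8-fold differences within 300 µm. The Zbtb46 mean includes a probe under the same rule, at 0.55 and with 2 other 8-fold differences within 300 µm. The Zbtb46 probe measured on both arrays had 0.34. In a bulk culture, fewer cells of a type and less RNA per cell cannot be told apart.

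None of the 9 complement genes was 2-fold or more higher or lower, against 2.04% of the 13532 genes measured that were higher by that much and 2.71% that were lower. C5ar1 came closest, at 1.99-fold higher. It was also the only member 1.5-fold or more higher, a size that 4.39% of all genes reached, and none was 1.5-fold or more lower (5.56% of all genes). Of the 9 genes, 7 had a positive and 2 a negative difference, where 51.6% of all genes measured had a positive one. Cfb, among the 7, was too dim with DMSO to be well above background, and by the rule for such probes it could not be negative. The median of the 9 genes was 0.13, beside a median of 0.0068 over all genes measured.

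**Figure D1:**
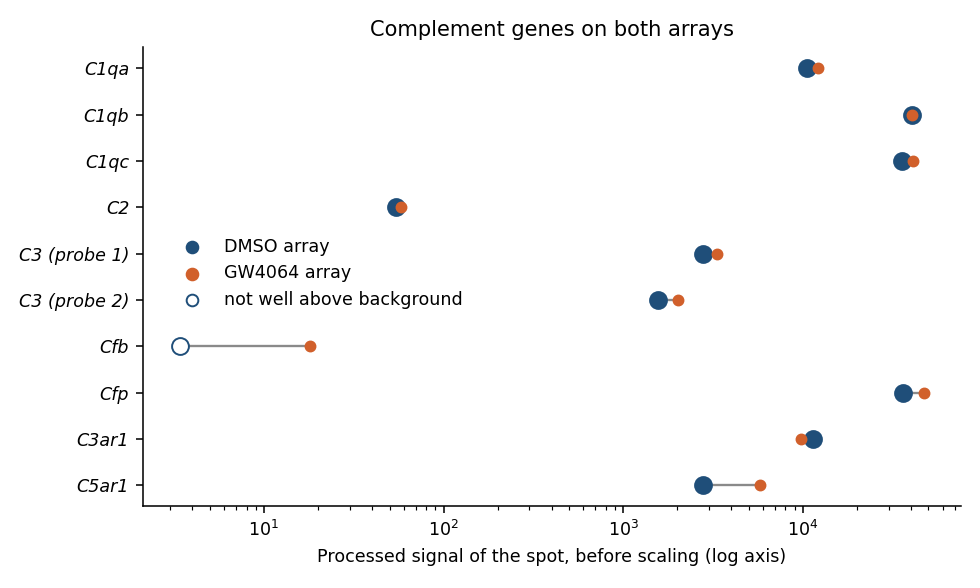
The processed signal of each of the 10 complement probes on the DMSO array (blue) and the GW4064 array (orange), on a log axis and before scaling. The open symbol marks a spot not well above background. C5ar1 moved from 2775 to 5778, C1qb lay almost at the same place on both arrays, and brightness is not comparable between probes.

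The chains of C1q were bright on both arrays and differed little. C1qa, the A chain, had signals of 10548 with DMSO and 12088 with GW4064, a log2 difference of 0.13. C1qb, the B chain, had 40315 and 40624, a difference of -0.055. C1qc, the C chain, was printed 10 times, which gives the best measured difference of the set. Its copies read between 32718 and 37111 with a median of 35482 on the DMSO array, and between 39099 and 43155 with a median of 40700 on the GW4064 array. These readings are before scaling, so their separation depends on the constant between the arrays. The log2 difference was 0.14 ± 0.057 (SD over 10 spots), with values from 0.028 to 0.23. It was positive at all 10 spots, but how many other probes printed 10 times had 1 sign at every spot was not counted. The genes are neighbours on chromosome 4 in the order C1qb, C1qc, C1qa. The difference of C1qc exceeded that of C1qb by 0.19 and that of C1qa by 0.0088, values in which any constant between the arrays cancels. With the added spike-in RNA as the reference between the arrays instead, C1qa (-0.036) and C1qc (-0.027) became negative and C1qb was at -0.22, while the median of all genes moved to -0.16.

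**Figure D2:**
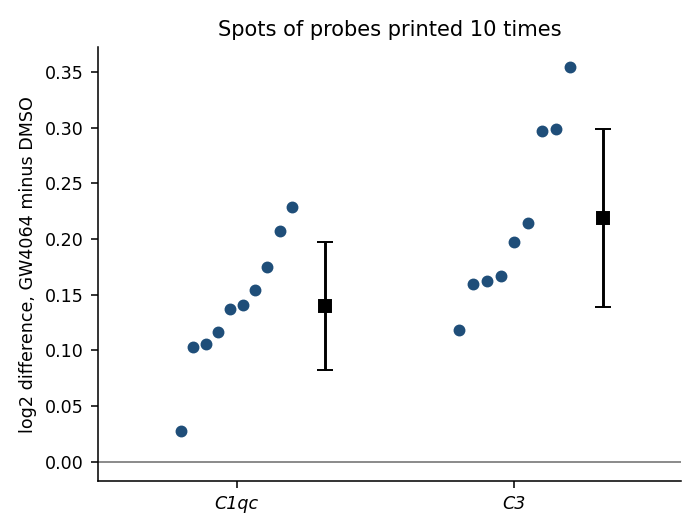
The log2 difference at each spot of the C1qc probe (10 spots) and of the first C3 probe (9 spots, 1 more left out as an outlier), sorted by size. Squares and bars are the mean and SD over spots of the same 2 arrays, so they carry spotting and scanning error and no error between cultures. All 19 spots lay above 0.

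The proteases that sit with C1q in the first complex of the classical pathway were lower on the GW4064 array, all 4 of them, under each scaling and with normexp. Of all 13532 genes measured, 6521 were lower. C1ra had differences of -0.23 and -0.18 on its probes, as its signals went from 447 to 399 and from 410 to 378. C1rb, its paralog, had -0.36 from signals of 44.9 and 36.5, or -0.16 with the background correction normexp. C1s1 read 79.1 with DMSO and 40.3 with GW4064, which was 2.06-fold lower. C1s2 read 75.8 and 35.1 and was 2.26-fold lower, and a further C1s2 probe gave no reading well above background. The differences of C1s1 and C1s2, each at 1 spot, were larger than the SD of single spots in that range of signal. Their sizes depended on the background correction, which gave -0.45 and -0.48 with normexp, a model of the background whose offset draws dim signals together. The genes are consecutive on chromosome 6, and whether their probes also bind the paralogous transcripts was not examined.

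The lowest difference of the chains, C1qb at -0.055, lay 0.15 above the highest difference of the 4 protease genes, C1ra at -0.21. In their ranges of signal the SD between copies was 0.072 and 0.089 at the median. The median was 0.13 for the chains and -0.70 for the proteases, which was -0.34 with normexp. After quantile normalization the gap between the groups was 0.051. The inhibitor of C1r and C1s, Serping1, was also lower, with probes at -0.76 and -0.72 as signals went from 299 to 185 and from 570 to 363. The first of these spots had 2 other 8-fold differences within 300 µm. The 11 measured stromal markers had a median of -0.76, from -1.11 for Postn to 0.065 for Pdgfra. The part of the stromal cells in the values of C1s1, C1s2 and Serping1 was not tested.

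Downstream in the classical pathway, C2 and C4b differed by less than the SD of single spots at such low signals. C2, which is cut to give the protease part of the C3 convertase, read 54.0 with DMSO and 58.3 with GW4064, a difference of 0.04, which turned to -0.045 with normexp and to -0.12 when centred on the spike-in RNA. C4b, from which the other part of that enzyme is made, read 57.7 and 59.5, a difference of -0.019, which was 0.070 after quantile normalization and 0.010 with normexp. C4a, a close copy of C4b, had no matched probe. In the lectin pathway, which starts the same cascade from sugar-binding proteins, 3 of 8 genes were measured. Ficolin A (Fcna) had 0.40, from 100 to 139, or 0.20 with normexp, Masp2 had -0.10, and Masp1, too dim with DMSO to be well above background, was at least 1.29-fold higher, at a spot in a damaged area of the slide.

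C3, the protein on which all the pathways meet, was higher at both of its probes. The first probe was printed 10 times, and 1 copy was left out because the software marked it as an outlier on the GW4064 array. At the other 9 spots it read between 2563 and 2900 on the DMSO array, with a median of 2792. On the GW4064 array these spots read between 3077 and 3591, with a median of 3351. The ranges did not overlap, but these readings are before scaling, so their separation depends on the constant between the arrays. How many other probes printed 10 times had ranges apart, or 1 sign at every spot, was not counted. The log2 difference was 0.22 ± 0.080 (SD over 9 spots), or 1.16-fold, and positive at all 9. The second probe, printed once, read 1569 and 2022, a difference of 0.30. The mean over both probes, with every copy left on either array, was 0.25, and it lay between 0.085 (spike-in RNA) and 0.26 over the settings tried. Of the 9 spots, 3 lay in damaged areas, defined as places where at least 2 further spots with an 8-fold difference lay within 300 µm, and without such areas the mean was 0.26.

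Of the alternative pathway genes, properdin (Cfp) was higher on the GW4064 array and Cfb was near the limit of detection. Cfp read 35995 with DMSO and 47201 with GW4064, a difference of 0.33 or 1.25-fold, and 90.3% of all genes had a lower difference. Neutrophils also make properdin, and the part of their RNA, whose markers were lower, was not tested. Cfp was positive under every scaling and with normexp, the lowest being 0.16 with the spike-in RNA. Cfb was too dim with DMSO to be well above background, at 3.41, and read 17.98 on the GW4064 array, near the lowest signal that counted as well above background there (15.1). Set against the corresponding lowest signal on the DMSO array (15.7), Cfb was at least 1.09-fold higher, and the bound gave no direction with the spike-in RNA. Cfb lies next to C2 on chromosome 17. The protease that activates factor B, Cfd, gave no signal well above background.

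Of the circulating regulators, Cfhr2 had probes that disagreed, with 1.11 (483 and 1090) and 0.14 (785 and 904), a mean 1.54-fold higher. Cfi, the protease that inactivates C3b and C4b, was not well above background. On the cell surface, the decay regulator Cr1l, known as Crry, had -0.15 (14765 and 13955). Cd55 and Cd55b were not well above background on either array. Cd59a, which blocks the last step of the membrane attack complex, had 0.50 (852 and 1258) and its paralog Cd59b had 0.36 (24.9 and 33.6), which became -0.039 with normexp. Among other soluble regulators, clusterin (Clu) had -0.50, from 193 to 143, and Cpb2, which trims the anaphylatoxins, had -0.43, or -0.073 with normexp.

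**Figure D3:**
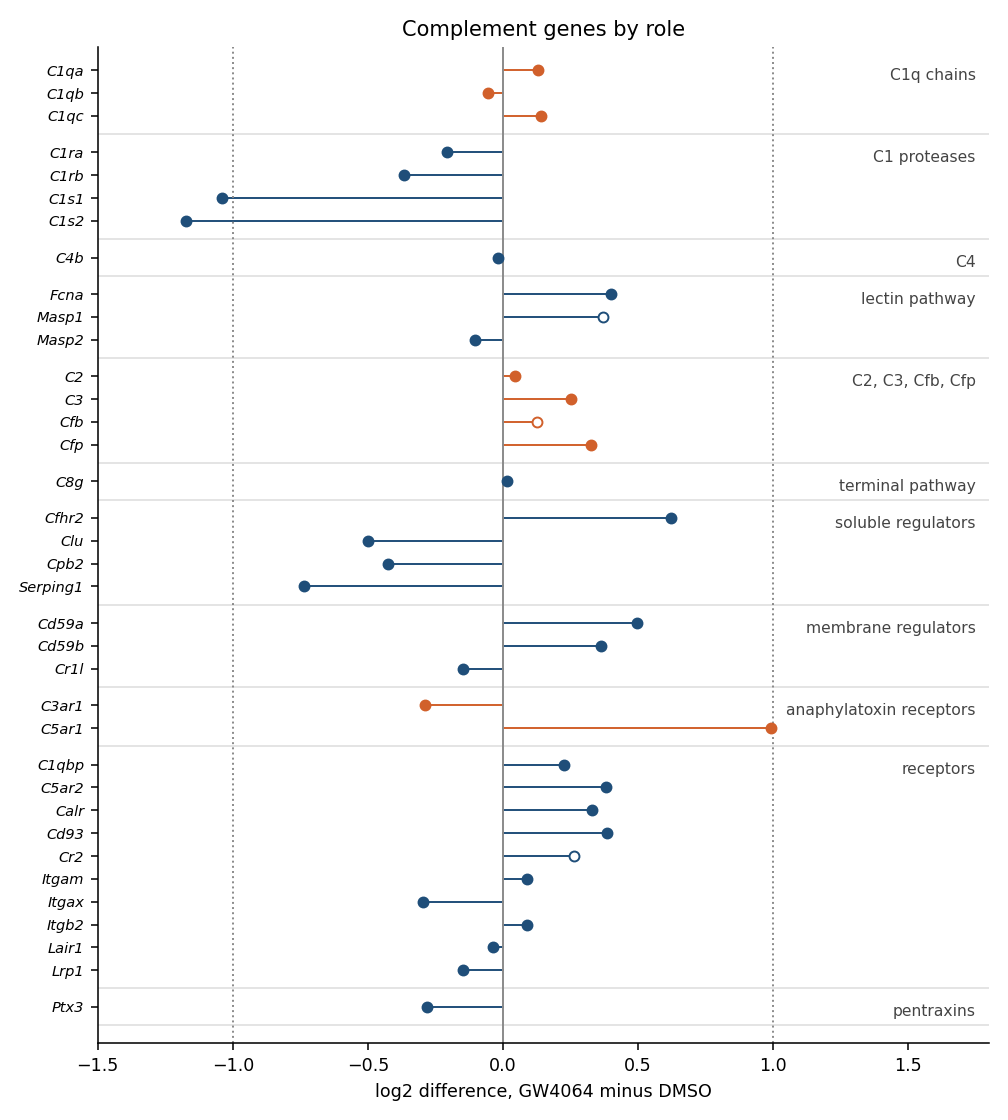
The log2 difference (GW4064 minus DMSO) of the 9 complement genes (orange) and of the 27 measured genes of the wider complement list (blue), grouped by role. Open symbols mark genes with a probe that was not well above background on 1 array, and dotted lines mark 2-fold. The C1 proteases lie to the left of all the C1q chains, C5ar1 lies at the right, and C3ar1 lies left of 0.

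The anaphylatoxin receptors differed in opposite directions. C5ar1, the receptor through which C5a recruits and activates myeloid cells, read 2775 with DMSO and 5778 with GW4064, a log2 difference of 0.99. This was the 280th largest of 13532 genes, and 97.9% of them had a lower difference. The probe was printed once, had no other 8-fold difference within 300 µm, and matched transcript NM_001173550. The difference lay between 0.83 (spike-in RNA) and 0.99 over the settings tried, below 2-fold in each. C3ar1, the receptor for C3a, read 11356 and 9740, a difference of -0.29 or 1.22-fold lower, and was negative under every other scaling and with normexp. The difference of C5ar1 exceeded that of C3ar1 by 1.28, or 2.43-fold, whatever constant separates the arrays. C5ar2, the second receptor for C5a and the neighbour of C5ar1 on chromosome 7, had 0.35 and 0.41 on its probes, from 767 and 1009 to 1023 and 1403, which was 0.61 below C5ar1. C5ar1 is also known from neutrophils, whose 6 measured markers were all lower on the GW4064 array, between -0.94 for Mpo and -0.32 for Camp, and their part in the value of C5ar1 was not tested.

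The other receptors of complement fragments differed in both directions, between -0.30 for Itgax and 0.39 for Cd93. The integrin complement receptors use the shared chain Itgb2, which had 0.091 (61512 and 68554). Itgam, its partner in complement receptor 3, had a mean of 0.089 over 3 probes, between -0.00048 and 0.15. Itgb2 (-0.076) and Itgam (-0.078) turned negative with the spike-in RNA, and Itgb2 was at -0.0076 after quantile normalization. Itgax, the partner in complement receptor 4, had -0.30 (186594 and 159127), at a spot with 2 other 8-fold differences within 300 µm. Cd93, a surface protein once described as a C1q receptor, had 0.39, calreticulin (Calr), which binds C1q on cells, had 0.33, and C1qbp had 0.23. Cr2, complement receptor 2 of B cells, had a mean of 0.26 over probes that disagreed, with -0.079 at one and at least 1.52-fold higher at the other, whose DMSO signal was too dim to be well above background, and the mean was 0.074 with normexp. Lrp1 had -0.15. Lair1 had a mean of -0.035 over probes that disagreed, with 0.030 and -0.10, and it was 0.030 with damaged areas left out. Vsig4, the complement receptor of resident macrophages, gave no signal well above background.

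Of the 54 genes of the wider complement list reported here, which leaves out the 9 above, 52 had a probe, 27 were measured, 24 were not well above background and 1 had its spot marked. Those measured were 13 higher and 14 lower, beside 6985 higher and 6521 lower over all genes. Their median was -0.019, beside 0.0068 over all genes. Masp1, among the higher ones, was too dim with DMSO to come out lower, and the Cr2 mean includes such a probe. Of the 27 genes, 0 were 2-fold or more higher, against 2.04% of all genes. The 2 that were 2-fold or more lower, C1s1 and C1s2, stand beside 2.71% of all genes. At 1.5-fold, Cfhr2 was the 1 higher gene (4.39% of all genes), though not with normexp (0.55) or the spike-in RNA (0.46). Serping1 joined the lower genes at that size (5.56% of all genes). Among the genes not well above background were most of the liver-made terminal components, with C8g as the only measured gene of the 7 (0.014, but -0.15 with the spike-in RNA and -0.11 with normexp), while C7 had no matched probe. Of the pentraxins, which recruit C1q, Ptx3 had -0.28, or -0.064 with normexp, and the others were not well above background.

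**Figure D4:**
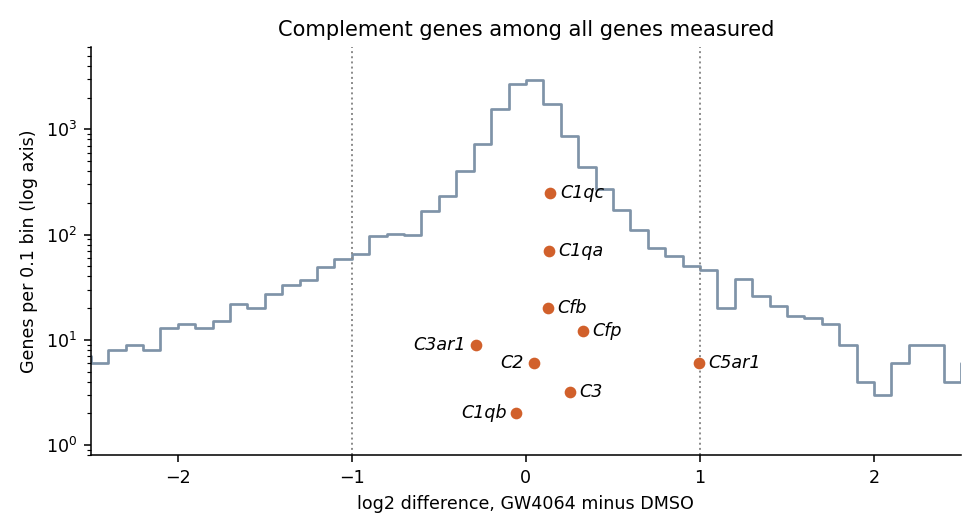
The number of genes in each bin of log2 difference (line, 0.1 wide, log axis) over the 13532 genes measured, with the 9 complement genes as dots at their own difference. The height of a dot has no meaning and only keeps the names apart, and dotted lines mark 2-fold. Genes in the far tails lie outside the axis. The dots other than C5ar1 lie between -0.29 and 0.33.

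The signs of the members held in most settings. C3, C5ar1 and Cfp were positive, and C1qb and C3ar1 negative, in each of 11 other ways of scaling, correcting or filtering. For C5ar1, Cfp, C1qb and C3ar1, each with 1 probe printed once, the settings that changed only the filter or the choice of probe returned the same value. The deposited table differed from that value by a constant of 0.0022. Those settings could not change the signs of these genes. C1qa, C1qc and C2 changed sign with the spike-in RNA, and C2 also with normexp. Cfb had the widest range, from 0 to 2.34, where 2.34 is the deposited table's value with a DMSO reading not well above background.

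**Figure D5:**
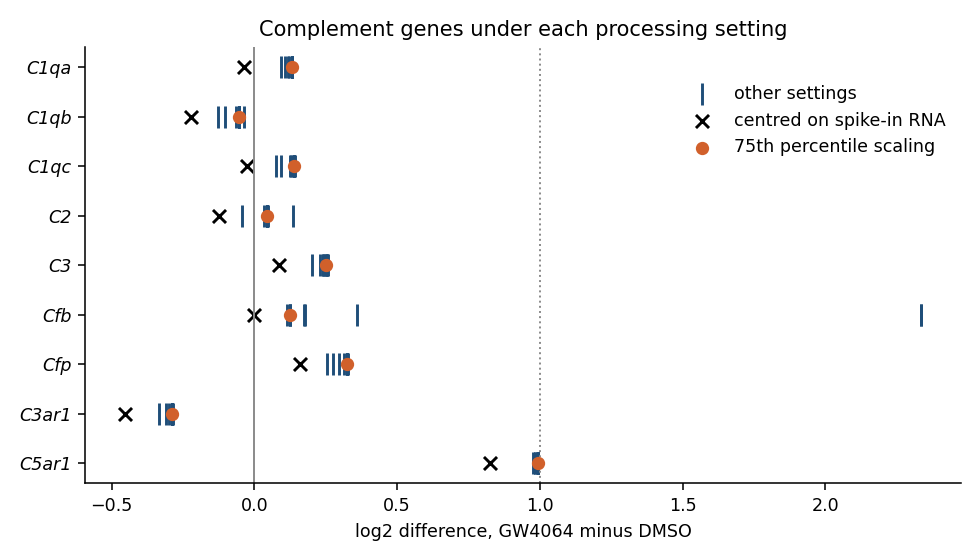
The log2 difference of each complement gene with 75th percentile scaling (dots), when centred on spike-in RNA (crosses) and in the other settings (ticks). The dotted line marks 2-fold. C5ar1 stays to the right of the other genes apart from the values of Cfb that take no account of background, at 2.33 and 2.34.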

How the data were processed

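Gene expression was measured once in BMDMs given DMSO and once in BMDMs given GW4064, with a group for each treatment label. The title, source name and treatment label of the GW4064 sample name GW4064, but its free-text description has the wording of the DMSO sample. The direction of every difference rests on the former. The authors deposited the scanner output of both arrays, in which Agilent Feature Extraction 10.7.1.1 had produced a background-subtracted, detrended intensity for each spot (1 colour, Cy3). The deposited files include a log2 table, in which the difference between the arrays matched that of the intensities for all 39200 shared probes within 0.001 apart from a constant. The baseline on which its probes were centred is unknown. The methods name no normalization.

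Here log2 intensity was scaled to the 75th percentile of the non-control spots. Spots marked as uneven or as outliers were left out, no spot was saturated, and copies of a probe were averaged. Where a probe failed the background test on 1 array, it entered there at the higher of its own value and the lowest signal well above background. The share of probes well above background was 57.4% with DMSO and 58.5% with GW4064. Symbols came from RefSeq transcripts of GRCm38.p6. The arrays were designed on another build, so no coordinates are given. A gene is the mean over its measured probes.

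With 1 array per condition no test was possible, and differences are given by size. The text names every member, the wider complement genes that are partners of the members or differ 1.5-fold or more, other genes of that list to describe a role, and cell type markers. One gene of the wider list is not reported here and is left out of that list's counts. The members and lists were chosen with earlier results of these data known. The calculation was tested on simulated data. Alternatives were quantile normalization, median centring, loess (span 0.3), spike-in centring, normexp (offset 50, median intensities), the deposited table, marked spots kept, other filters, the brightest probe, a 1.5-fold threshold and damaged areas left out. Python 3.11.15, numpy 2.4.6, pandas 2.3.3, statsmodels 0.14.6, R 4.3.3 and limma 3.58.1 were used.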

Additional observations from a re-analysis of the deposited data

How the results depend on the processing

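No paired analysis was possible because there was 1 array for DMSO and 1 for GW4064. No complement member was 2-fold or more lower under any alternative. The number 2-fold or more higher, 0, became 1 with the deposited table and without a filter on dim probes. In both cases it was Cfb, whose DMSO signal was not well above background. At a 1.5-fold threshold the number was 1 (C5ar1). The median of the members, 0.13, was -0.027 when centred on spike-in RNA, where the median of all genes was -0.16, and stayed between 0.11 and 0.14 in the other settings. Of the wider list's genes reported here, 0 were 2-fold or more higher, and the count was 1 with the deposited table, 3 without a filter and 1 at 1.5-fold. The number lower, 2, was 1 after quantile normalization, with C1s1 at -0.96, and 0 with normexp, and it was 3 with marked spots kept, without a filter and at 1.5-fold.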

Other observations

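Some complement spots were left out except in the setting that kept marked spots. The spot for Mbl1, a mannose-binding lectin, read 71.0 with DMSO and 3.66 with GW4064, but the software marked it as uneven with DMSO. The copy of C3 marked as an outlier read 3063 and 3413.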
